A study of Mus musculus with 8 samples.

Results

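In RNA-seq tables of JunB cKO and wild type mice, 10 genes that act late in the life of an epidermal keratinocyte were followed: the transglutaminases Tgm1, Tgm3 and Tgm5, the proteases Casp14 and Asprv1, the deiminase Padi1, the secreted proteins Sbsn, Dmkn and Krtdap, and the calcium-binding protein Calml3. They were picked by symbol for their known role, with no threshold on their values, and all 10 were found in each of 3 tables, which together list 50981 gene symbols. The tables cover unperturbed keratinocytes, skin after hair plucking and wounds.

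JunB cKO mice carry floxed JunB alleles and a Cre recombinase under the K14 promoter, which is active in basal epidermal cells, so that JunB is deleted in epidermal cells and their descendants but not in dermal and immune cells of the same biopsy. The sample labels give the genotypes as JunB +/+ and JunB -/- on the C57BL/6 strain. Unperturbed samples came from mice of 60 days, and plucked skin was taken at an age of 58 days, 4 days after depilation of the back. Wound biopsies were taken 30 days after excision wounding, and the age of these mice is not given in the sources used here. RNA of 3 samples was pooled for each library. There are 8 libraries in the labels, of which 4 come from wounds (2 of each genotype), but each table holds 1 FPKM value per gene and genotype. FPKM scales reads by transcript length and library size, so that levels of different genes can be compared within a column. With 1 value per genotype no spread between samples was available, no test was carried out, and every difference below has no replicate check.

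The outermost layer of the skin is built from dying keratinocytes. During cornification, transglutaminases join structural proteins such as loricrin and involucrin into an insoluble cornified envelope, deiminases convert arginine residues of keratins and filaggrin to citrulline, and proteases cut profilaggrin into filaggrin and then into small moisture-binding molecules. The hair follicle has a related programme of its own, in which deiminated trichohyalin is cross-linked in the inner root sheath. JunB is a subunit of the transcription factor AP-1, which binds the letters TGANTCA, where N is any base, or TGACGTCA.

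Promoter windows from 250 bases before to 50 bases after each RefSeq start site on GRCm38.p6 were read for 9 of the 10 genes (not for Calml3), and both motifs, which read the same on both strands, were looked for. Windows of 3 of these 9 genes held AP-1 letters, namely those of Sbsn, Dmkn and Krtdap, which lie next to each other on chromosome 7. In the whole set, 2951 of 27025 gene symbols (10.9%) had a window with a match. Sbsn had TGAATCA beginning 119 bases and TGAGTCA beginning 6 bases before its start site, Dmkn had TGAGTCA 89 bases and Krtdap TGAGTCA 81 bases before the start. A start site inside Dmkn had TGAGTCA 82 bases before it. All matches were to TGANTCA. The windows of these 3 genes are shown because they held the letters, and that of Casp14 because its FPKM was higher in JunB cKO in all 3 tables. Capitals mark the motif, and the strand is that of the gene.
Sbsn, chr7:30751221-30751520, plus strand: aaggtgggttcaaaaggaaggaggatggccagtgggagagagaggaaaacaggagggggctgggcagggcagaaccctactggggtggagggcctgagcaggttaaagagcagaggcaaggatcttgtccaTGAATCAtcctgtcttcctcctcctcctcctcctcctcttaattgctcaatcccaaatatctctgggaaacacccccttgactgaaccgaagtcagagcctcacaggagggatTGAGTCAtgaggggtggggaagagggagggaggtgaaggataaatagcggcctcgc
Dmkn, chr7:30763506-30763805, plus strand: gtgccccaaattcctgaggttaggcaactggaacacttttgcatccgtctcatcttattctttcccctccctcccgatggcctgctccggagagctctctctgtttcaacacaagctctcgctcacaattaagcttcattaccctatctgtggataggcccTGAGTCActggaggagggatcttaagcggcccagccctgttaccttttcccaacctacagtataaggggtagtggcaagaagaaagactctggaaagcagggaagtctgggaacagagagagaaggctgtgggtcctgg
Krtdap, chr7:30787655-30787954, plus strand: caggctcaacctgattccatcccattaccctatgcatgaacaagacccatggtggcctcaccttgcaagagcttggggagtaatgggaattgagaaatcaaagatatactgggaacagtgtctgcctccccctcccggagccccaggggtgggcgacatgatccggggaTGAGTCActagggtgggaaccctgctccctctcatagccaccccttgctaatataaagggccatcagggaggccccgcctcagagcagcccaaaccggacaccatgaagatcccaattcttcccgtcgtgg
Casp14, chr10:78718244-78718543, minus strand, without a match: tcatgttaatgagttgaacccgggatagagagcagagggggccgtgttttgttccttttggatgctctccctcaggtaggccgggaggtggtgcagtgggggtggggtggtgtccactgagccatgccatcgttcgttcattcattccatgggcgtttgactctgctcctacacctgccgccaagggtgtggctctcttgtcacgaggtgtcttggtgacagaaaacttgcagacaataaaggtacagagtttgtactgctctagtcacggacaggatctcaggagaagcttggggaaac
A match describes the letters in the window and does not show that AP-1 binds there.

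**Figure D1:**
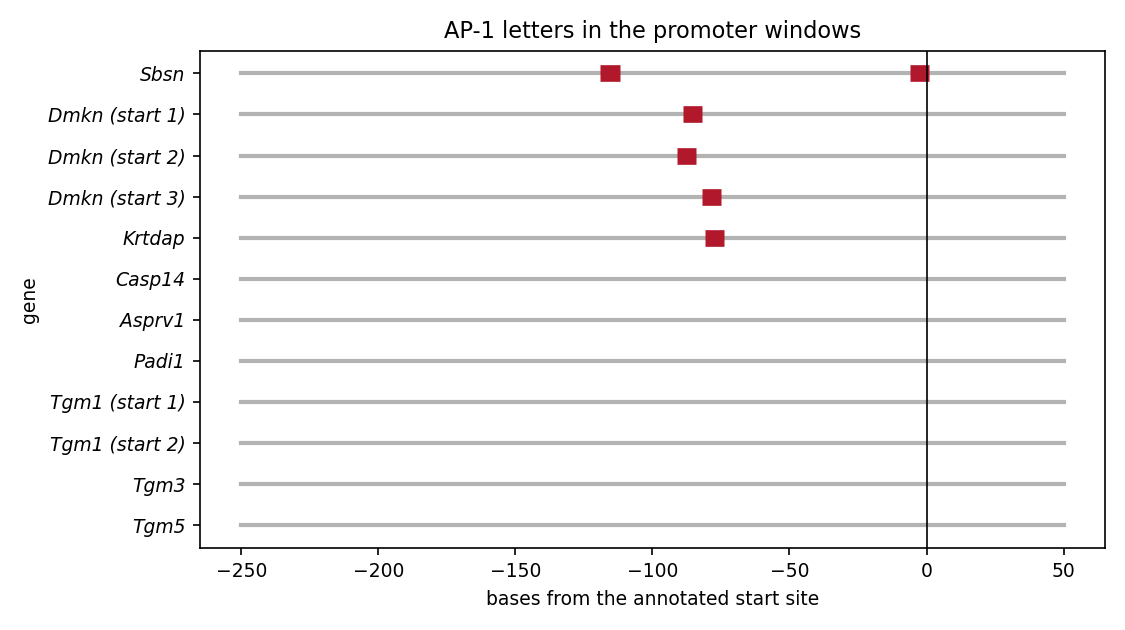
Position of AP-1 letters (red bars) in the promoter windows (grey lines) of 9 genes, in bases from the annotated start site (vertical line), with 1 line per annotated start. Sbsn, Dmkn and Krtdap hold matches, and the windows of Casp14, Asprv1, Padi1, Tgm1, Tgm3 and Tgm5 hold none.

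The AP-1 letters were also read for genes that work with these 10. Among the proteins that are cross-linked or cleaved during cornification, 8 of 13 with a window held a match (61.5%), namely Lor, Ivl, Flg, Flg2, Rptn, Sprr1a, Sprr1b and Sprr2d. Among other deiminases 1 of 4 held a match (Padi4), and among other epidermal proteases and their inhibitor 2 of 8 (Blmh and Capn12). No match was found in the windows of 5 other transglutaminases, 4 calmodulins, 3 differentiation keratins and 2 basal keratins. These shares are a description of the windows.

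Junb was the check on the labels, with a log2 ratio of JunB cKO over wild type, log2((cKO + 1)/(WT + 1)) of the FPKM values (written log2 cKO/WT below), of -3.05 in unperturbed keratinocytes, -1.71 in plucked skin and -1.06 in wounds. A pseudocount of 1 FPKM understates the difference of low genes. The tables give no read numbers, so depth was estimated from the steps in which low FPKM values fall. Per kilobase of transcript, 1 read was worth 0.0592 FPKM for wild type and 0.201 for JunB cKO in unperturbed keratinocytes, 0.0613 and 0.0777 in plucked skin, and 0.0231 and 0.0252 in wounds, so that the unperturbed JunB cKO library was the shallowest. In the unperturbed JunB cKO library, 887 of 1049 loci of olfactory, vomeronasal and taste receptors, which sense odours, pheromones and tastes, were above 0, with a median of 0.546 FPKM, against 38 in wild type, so that values below about 1 FPKM in that library were not read as expression. For the unperturbed pair, the labels and column names give keratinocytes and the study's methods intact skin, and the name keratinocytes is used here because markers of dermal cells were low. The summed FPKM of 6 fibroblast markers was 13.7 and 12.5 in wild type and JunB cKO there, whereas the basal keratinocyte markers summed to 4638 and 4357. None of the muscle markers reached 1 FPKM in the unperturbed pair. The hair plucking samples are labelled both keratinocyte and skin biopsy, and their fibroblast markers summed to 5109 and 1856.

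In all columns Krtdap, Dmkn and Sbsn made up most of the summed FPKM of the 10 genes. Because FPKM is scaled by transcript length, a share of FPKM is not a share of reads or of RNA mass. The FPKM values of the 10 genes summed to 10108 for wild type and 11214 for JunB cKO in unperturbed keratinocytes, 12967 and 15070 in plucked skin, and 3703 and 4011 in wounds, and the 3 secreted proteins held between 81.8% and 95.5% of it. Krtdap alone held between 53.9% and 71.1%. Krtdap was first and Dmkn second in each of the 6 columns. In the unperturbed and plucked columns Sbsn, Asprv1, Calml3 and Casp14 followed Dmkn, with Casp14 above Calml3 in unperturbed JunB cKO, and Tgm3 and Padi1 came last. In wild type wounds Tgm3 stood above Tgm1, Casp14, Padi1 and Tgm5. The tables were normalized separately, so that levels can be compared between tables only by their order within a column.

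**Figure D2:**
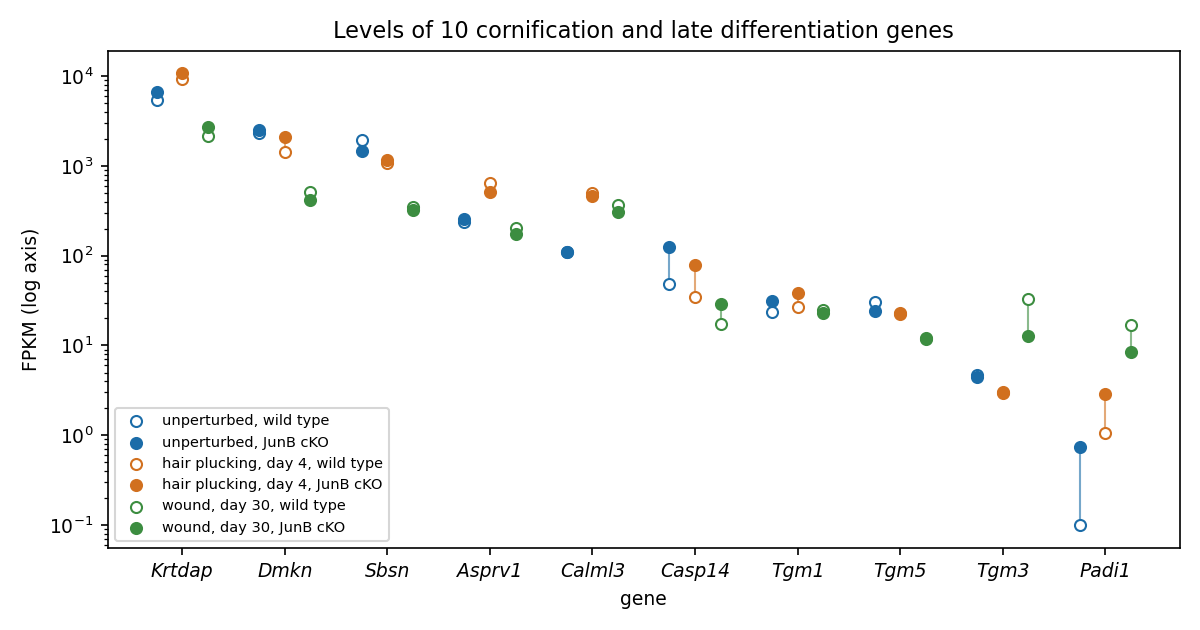
FPKM (log axis) of the 10 genes in wild type (open circles) and JunB cKO (filled circles), joined by a line for each table, with 1 value per genotype and no error bar. Krtdap and Dmkn lie highest, the line is long for Casp14 in unperturbed keratinocytes and plucked skin, and Tgm3 and Padi1 are the lowest genes there. In wild type wounds Tgm3 lies above Tgm1, Casp14, Padi1 and Tgm5, and Padi1 stays just above Tgm5, the lowest. In JunB cKO wounds Padi1 is the lowest.

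At a limit of 2-fold on the log2 scale above, and among genes with 1 FPKM or more in either genotype, 1 of the 9 members that passed the minimum was higher in JunB cKO in unperturbed keratinocytes (Casp14) and 0 were lower, beside 15.4% of all genes higher and 1.40% lower. Padi1 did not reach the minimum. In plucked skin 1 of 10 was higher (Casp14) and 0 were lower, beside 18.2% higher and 16.0% lower among all genes. In wounds 0 of 10 were higher and 1 was lower (Tgm3), beside 5.69% higher and 5.23% lower among all genes. These shares of all genes also stand beside the counts past 2-fold in the lists of related genes and markers below, which use the same limit and minimum. The 15.4% includes low genes of the unperturbed JunB cKO library, in which most receptor loci were above 0, as given above. A minimum of 10 FPKM leaves these low genes out. With it, 1.62% of all genes were higher and 1.80% lower in unperturbed keratinocytes, beside 1 of 8 members higher (Casp14) and 0 lower. The shares of all genes were 13.1% and 12.3% in plucked skin, and 4.09% and 3.38% in wounds. The median log2 ratio of the members was 0.12 in unperturbed keratinocytes, 0.16 in plucked skin and -0.19 in wounds, beside medians of -0.03, 0.03 and 0.01 over all genes with 1 FPKM or more. In unperturbed keratinocytes the median of all genes with 10 FPKM or more was -0.23, and relative to that median the members' median was 0.36. Relative to the mean of Krt1 and Krt10, keratins of the suprabasal layers, the members' median turned to -0.42 in unperturbed keratinocytes and -0.67 in plucked skin, since both keratins were higher in JunB cKO. Not all suprabasal markers were higher. Dsg1a and Dsc1 had log2 ratios of -0.48 and -0.23 in unperturbed keratinocytes, -0.02 and 0.19 in plucked skin, and -0.56 and -0.61 in wounds. Casp14 and Krtdap were higher in JunB cKO in all 3 tables, Calml3 was at or below the wild type value in all 3, and the other 7 genes had ratios of both signs. Of all genes with 1 FPKM or more, 47.2% were higher in unperturbed keratinocytes, 51.2% in plucked skin and 51.4% in wounds. The share of all genes that keep 1 sign in all 3 tables was not calculated, so these patterns are not read as particular to the members. In these bulk samples, fewer cells of a type and less RNA per cell cannot be told apart.

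**Figure D3:**
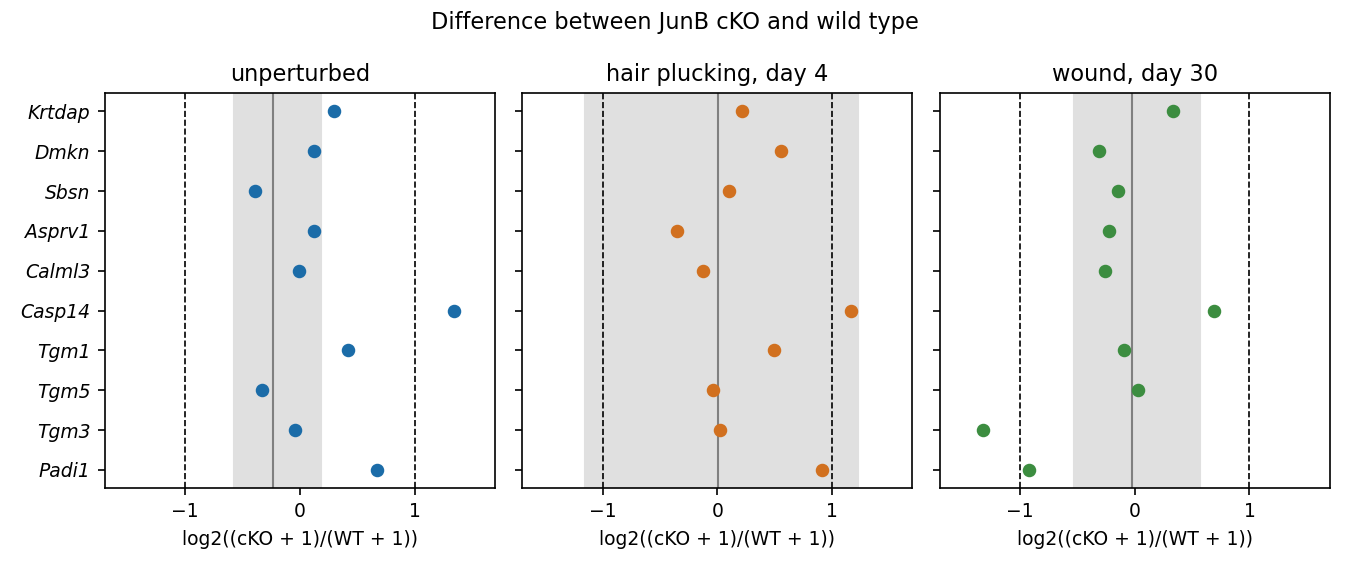
Log2 ratio of JunB cKO over wild type for the 10 genes in each table, with the 10th to 90th percentile (grey band) and the median (grey line) of all genes with 10 FPKM or more, and dashed lines at 2-fold. In unperturbed keratinocytes Casp14, Padi1, Tgm1 and Krtdap lie above the band, and Casp14 lies above it in wounds and within it in plucked skin, where the band reaches from -1.15 to 1.23, and Tgm3 and Padi1 lie below the band in wounds. The unperturbed point of Padi1 rests on about 6 and 13 reads, and no difference was read from it.

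Tgm1 encodes the membrane-bound transglutaminase of the granular layer, on chromosome 14 (55700009 to 55713926, minus strand, GRCm38). Its FPKM was 23.3 for wild type and 31.6 for JunB cKO in unperturbed keratinocytes, a log2 ratio of 0.42. In plucked skin it was 27.2 and 38.7 (log2 cKO/WT 0.50), and in wounds 24.5 and 22.9 (log2 cKO/WT -0.09). The level of Tgm1 was thus higher in JunB cKO in 2 tables and close to wild type in wounds, and all 3 ratios were within 2-fold. In unperturbed keratinocytes 4.78% of the genes with 10 FPKM or more had a ratio as high, and in plucked skin 25.8%.

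Tgm5 is a further epidermal transglutaminase, which cross-links several envelope proteins, and lies on chromosome 2 (121046111 to 121085841, minus strand). Its FPKM was 30.8 for wild type and 24.3 for JunB cKO in unperturbed keratinocytes (log2 cKO/WT -0.33). Of the genes with 10 FPKM or more there, 34.1% had a ratio as low, and relative to their median the ratio of Tgm5 was -0.10. The FPKM of Tgm5 was 22.8 and 22.1 in plucked skin (log2 cKO/WT -0.04) and 11.9 and 12.2 in wounds (log2 cKO/WT 0.03). In the last 2 tables the genotypes differed by less than the counting error, with a fold of JunB cKO over wild type of 0.971 in plucked skin (95% counting interval 0.878 to 1.07) and 1.02 in wounds (0.944 to 1.11). These exact intervals rest on reads estimated from the FPKM steps and cover counting error only, not the spread between animals.

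Tgm3 is the transglutaminase of the upper epidermis and of the hair follicle, activated by proteolysis, and lies on chromosome 2 (130012349 to 130050399, plus strand) beside Tgm6, 62016 bases away. Its FPKM was 4.69 for wild type and 4.52 for JunB cKO in unperturbed keratinocytes (log2 cKO/WT -0.05) and 2.93 and 2.999 in plucked skin (log2 cKO/WT 0.03). In wounds it was 33.3 for wild type and 12.7 for JunB cKO (log2 cKO/WT -1.33). The wound values stood for about 5688 and 1980 reads, and the fold was 0.381 (95% counting interval 0.361 to 0.401), whereas the intervals in unperturbed keratinocytes (0.756 to 1.23) and in plucked skin (0.821 to 1.27) both held 1. Of the genes with 10 FPKM or more, 2.47% had a ratio as low in wounds. In unperturbed keratinocytes Tgm3, like Calml3, had a ratio above 0 when ratios were taken relative to the median of all genes (0.19 for Tgm3 and 0.23 for Calml3). The ratio of Tgm1 to Tgm3 within a column was 4.98 and 6.99 in unperturbed keratinocytes, 9.27 and 12.9 in plucked skin, and 0.736 and 1.81 in wounds, for wild type and JunB cKO, respectively. Tgm3 was thus the more abundant of both only in wild type wounds.

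The other transglutaminases did not move in 1 direction. Of 3 with 1 FPKM or more in unperturbed keratinocytes, 0 passed the 2-fold limit. In plucked skin 1 of 4 was higher and 1 lower in JunB cKO. F13a1, the coagulation factor also made by macrophages, was at 23.2 FPKM for wild type and 10.9 for JunB cKO (log2 cKO/WT -1.03), and Tgm7 at 0.565 and 2.67 (log2 cKO/WT 1.23). In wounds 0 of 3 passed, and the lowest ratio was that of Tgm6, the neighbour of Tgm3, with 24.1 and 12.98 FPKM (log2 cKO/WT -0.85). Tgm2, the widely expressed transglutaminase, had the highest, with 13.1 and 18.1 FPKM (log2 cKO/WT 0.44).

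Casp14 is a caspase restricted to cornifying epithelia, which takes part in the breakdown of filaggrin, and lies on chromosome 10 (78711991 to 78718294, minus strand). Its FPKM was 48.5 for wild type and 125 for JunB cKO in unperturbed keratinocytes (log2 cKO/WT 1.35). It was 34.9 and 79.7 in plucked skin (log2 cKO/WT 1.17) and 17.5 and 28.8 in wounds (log2 cKO/WT 0.69). JunB cKO was the higher genotype in all 3 tables, past 2-fold in the first 2. The folds were 2.58 (95% counting interval 2.40 to 2.77), 2.28 (2.13 to 2.45) and 1.65 (1.55 to 1.76), with about 1216 reads or more in each column. A ratio as high was found for 1.25% of the genes with 10 FPKM or more in unperturbed keratinocytes, 10.7% in plucked skin and 7.43% in wounds. In the order of all genes by level, Casp14 was at position 1254 for wild type and 360 for JunB cKO in unperturbed keratinocytes.

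Asprv1 encodes the retroviral-like aspartic protease of the granular layer, which cuts the linker of profilaggrin. It has 1 exon, on chromosome 6 (86628164 to 86629710, plus strand). Its FPKM was 237 for wild type and 259 for JunB cKO in unperturbed keratinocytes (log2 cKO/WT 0.12), 646 and 507 in plucked skin (log2 cKO/WT -0.35), and 203 and 173 in wounds (log2 cKO/WT -0.23). The 2 proteases differed in their ratios. The ratio of Casp14 to Asprv1 was 0.204 for wild type and 0.483 for JunB cKO in unperturbed keratinocytes, 0.0541 and 0.157 in plucked skin, and 0.0860 and 0.166 in wounds, and was higher in JunB cKO in each table.

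Among 13 other genes of epidermal proteolysis (12 in the plucked and wound tables, where Ctsd was not used here), 0 passed 2-fold in unperturbed keratinocytes. Furin, a proprotein convertase, had the lowest ratio, with 34.4 FPKM for wild type and 25.3 for JunB cKO (log2 cKO/WT -0.43). In plucked skin 2 were higher and 2 lower. Furin was at 33.1 and 83.6 FPKM (log2 cKO/WT 1.31) and Capn12, a calpain of the hair follicle, at 0.800 and 5.99 (log2 cKO/WT 1.96). Ctsc, the protease that activates serine proteases of leukocytes, was at 166 and 41.7 FPKM (log2 cKO/WT -1.97), and Cst6, the inhibitor of cathepsins in the cornified layer, at 267 and 70.6 (log2 cKO/WT -1.91). In wounds 0 of 12 passed, with Furin again at the top (46.0 and 83.2 FPKM, log2 cKO/WT 0.84) and St14, which encodes the serine protease matriptase, at the bottom (36.6 and 23.6 FPKM, log2 cKO/WT -0.61).

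Padi1, a deiminase of the epidermis and the follicle, lies on chromosome 4 (140812983 to 140845778, minus strand), 2334 bases from Padi3. Its FPKM was 0.0998 for wild type and 0.750 for JunB cKO in unperturbed keratinocytes, which stood for about 6 and 13 reads and was near the median of the receptor loci in that JunB cKO library, so that no difference was read from it. In plucked skin it was 1.05 and 2.86 (log2 cKO/WT 0.91), about 61 and 131 reads, with a fold of 2.72 (95% counting interval 1.99 to 3.75). In wounds it was 17.0 and 8.52 (log2 cKO/WT -0.92), with a fold of 0.501 (0.468 to 0.537). The direction of Padi1 was thus opposite in both tables, and it passed 2-fold in plucked skin with a pseudocount of 0.1, where the log2 ratio was 1.36. Of the genes with 10 FPKM or more, 14.3% had a ratio as high as Padi1 in plucked skin and 3.84% a ratio as low in wounds. In plucked skin this compares unlike levels, since the pseudocount of 1 FPKM understates the ratio of Padi1 more than that of those genes.

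None of the 4 other deiminases reached 1 FPKM in unperturbed keratinocytes. In plucked skin Padi3, the deiminase of trichohyalin and hair, was at 0.704 FPKM for wild type and 5.65 for JunB cKO (log2 cKO/WT 1.96), Padi4 was at 5.84 and 6.05 (log2 cKO/WT 0.04), and Padi2 was at 1.34 for wild type and listed at 0 for JunB cKO. In wounds Padi3 was at 55.5 and 38.4 FPKM (log2 cKO/WT -0.52) and Padi4, a deiminase best known from neutrophils, at 19.8 and 11.6 (log2 cKO/WT -0.72). Padi2 was at 1.54 and 2.44 (log2 cKO/WT 0.44). Of the 3 deiminases above 1 FPKM in wounds, 2 were lower in JunB cKO and 0 passed 2-fold.

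Tgm3, Padi1 and their neighbours were set beside markers of the hair follicle. The summed FPKM of the inner root sheath markers was 7383 for wild type and 4688 for JunB cKO wounds, with 7 of 7 lower in JunB cKO and 2 of them past 2-fold. Tchh, which encodes trichohyalin, a substrate of Tgm3 and the deiminases, was at 1945 and 882 FPKM (log2 cKO/WT -1.14), and Krt28 at 486 and 240 (log2 cKO/WT -1.02). The sum of the hair shaft keratins was 1759 and 1141, with 8 of 8 lower. In plucked skin the order was the opposite, with 64.6 FPKM for wild type and 654 for JunB cKO for the inner root sheath (7 of 7 past 2-fold higher) and 5.23 and 108 for the hair shaft (8 of 8). The fold of the inner root sheath sum was 10.1 there, that of Padi1 2.72 and that of Tgm3 1.02. In unperturbed keratinocytes the sums were 47.8 and 35.4 for the inner root sheath and 8.37 and 7.22 for the hair shaft. The wound values of Tgm3 and Padi1 moved with the follicle markers, in plucked skin Padi1 did and Tgm3 did not, and the part of these cells in either result was not tested.

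**Figure D4:**
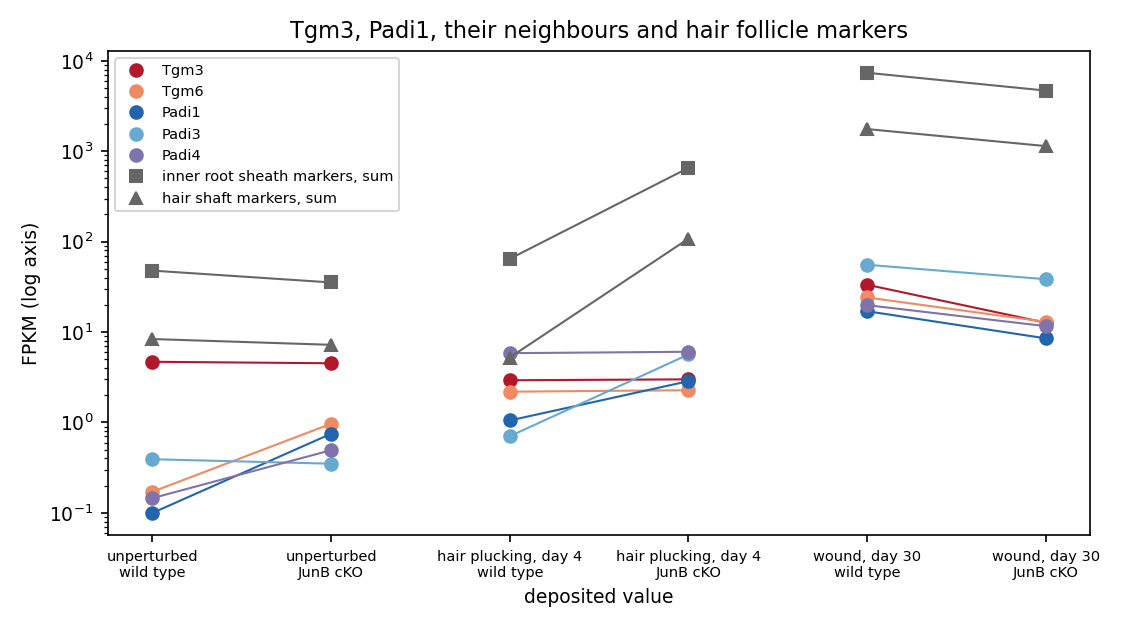
FPKM (log axis) of Tgm3, Tgm6, Padi1, Padi3 and Padi4 (circles) and the summed FPKM of inner root sheath (squares) and hair shaft markers (triangles) in the 6 columns, with lines joining the genotypes of a table. All 7 lines slope down from wild type to JunB cKO in wounds, and in plucked skin the marker sums, Padi3 and Padi1 slope up while Tgm3, Tgm6 and Padi4 are nearly flat.

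Sbsn (suprabasin), Dmkn (dermokine) and Krtdap (keratinocyte differentiation-associated protein) encode secreted proteins of the suprabasal and granular layers. The genes follow each other on the plus strand of chromosome 7, Sbsn at 30751471 to 30756134, Dmkn at 30763756 to 30781063 and Krtdap at 30787896 to 30791097, with gaps of 7621 and 6832 bases. Their levels were among the highest of all genes. Krtdap held position 15 in both unperturbed columns, 7 and 10 in plucked wild type and JunB cKO, and 30 and 29 in wounds.

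Krtdap had an FPKM of 5447 for wild type and 6695 for JunB cKO in unperturbed keratinocytes (log2 cKO/WT 0.30), 9223 and 10700 in plucked skin (log2 cKO/WT 0.21), and 2158 and 2711 in wounds (log2 cKO/WT 0.33). It was the higher in JunB cKO in each table, by less than 2-fold. Krt10 was higher in JunB cKO by more than that, with log2 ratios of 0.56, 0.88 and 0.63, so that the ratio of Krtdap to Krt10 was lower in JunB cKO in each table, namely 1.64 for wild type and 1.37 for JunB cKO, 4.60 and 2.90, and 1.89 and 1.53.

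Dmkn was at 2293 FPKM for wild type and 2502 for JunB cKO in unperturbed keratinocytes (log2 cKO/WT 0.13), 1428 and 2097 in plucked skin (log2 cKO/WT 0.55), and 517 and 417 in wounds (log2 cKO/WT -0.31). Sbsn was at 1914 and 1463 (log2 cKO/WT -0.39), 1084 and 1164 (log2 cKO/WT 0.10), and 352 and 318 (log2 cKO/WT -0.15). In unperturbed keratinocytes 26.6% of the genes with 10 FPKM or more had a ratio as low as Sbsn, and relative to their median its ratio was -0.16. The neighbours did not share 1 direction in unperturbed keratinocytes, where Sbsn was lower and Dmkn and Krtdap were higher in JunB cKO, nor in wounds, where only Krtdap was higher. In plucked skin all 3 were higher, and all 3 ratios were within 2-fold in every table. The locus given for Sbsn spans 4664 bases in the unperturbed table and 26556 bases in the plucked and wound tables, so that reads of further transcripts may have entered its later values.

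Calml3 is a calmodulin-like protein of differentiated epithelia, which binds calcium, the ion that drives keratinocyte differentiation. It has 1 exon, on chromosome 13 (3802896 to 3804316, minus strand). Its FPKM was 109.5 for wild type and 109.2 for JunB cKO in unperturbed keratinocytes, a fold of 0.997 (95% counting interval 0.913 to 1.09). It was 497 and 456 in plucked skin (log2 cKO/WT -0.12) and 368 and 306 in wounds (log2 cKO/WT -0.26). The folds there were 0.917 (0.890 to 0.946) and 0.833 (0.815 to 0.851), so that both counting intervals lay below 1. All 3 ratios were within 2-fold. Among the other calmodulins 0 of 5 passed 2-fold in unperturbed keratinocytes, and 1 was lower in each of the other tables. In plucked skin this was Calm3, one of the genes for calmodulin itself, with 211 and 98.5 FPKM (log2 cKO/WT -1.09). In wounds it was Calm5, with 4.43 and 1.72 FPKM, just past the limit. Calm4, an epidermal calmodulin-like gene with a higher level than Calml3 in unperturbed keratinocytes and plucked skin, was at 907 and 681 FPKM in unperturbed keratinocytes (log2 cKO/WT -0.41), 883 and 801 in plucked skin (log2 cKO/WT -0.14), and 144 and 181 in wounds (log2 cKO/WT 0.32).

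The proteins on which these enzymes act were described as a list of 15, with counts of those that had 1 FPKM or more. In unperturbed keratinocytes 5 of 13 were at least 2-fold higher in JunB cKO and 1 was lower, beside 15.4% higher and 1.40% lower among all genes. The 15.4% includes low genes of the JunB cKO library, and with a minimum of 10 FPKM the shares of all genes were 1.62% and 1.80%. The median log2 ratio of the list was 0.34. Sprr1b, a small proline-rich envelope protein, was at 33.8 FPKM for wild type and 12.96 for JunB cKO (log2 cKO/WT -1.32), in contrast to Lor, Flg and Cnfn, with log2 ratios of 2.16, 1.94 and 1.42. The other 2 higher genes, Sprr2d and Sprr3, were below 3 FPKM in the unperturbed JunB cKO library. In plucked skin 2 of 14 were higher and 1 was lower, with a median of 0.38, beside 18.2% higher and 16.0% lower among all genes. Cnfn (cornifelin) was at 3.61 and 41.3 FPKM (log2 cKO/WT 3.20), Sprr2d was listed at 0 for wild type and 2.59 for JunB cKO, and Sprr1a was at 258 and 113 (log2 cKO/WT -1.18). In wounds 11 of 14 were below the wild type value, with a median of -0.25, whereas 51.4% of all genes were above it. Of these 11, 1 passed 2-fold, beside 5.23% of all genes, namely Ivl (involucrin), with 139 and 65.7 FPKM (log2 cKO/WT -1.07). Sprr2d, listed at 0 for wild type and 1.56 for JunB cKO, passed in the other direction.

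The keratins of differentiated layers give the setting for these values. Krt1 had log2 ratios of 0.51, 0.69 and 0.58 in the 3 tables, and Krt77, a further suprabasal keratin, had -0.59, 0.26 and -0.59. The basal keratin Krt14 had -0.12, -0.52 and 0.48, and Krt5 0.05, 0.46 and -0.02. Of the other basal keratinocyte markers, Itga6 had -0.54, 0.95 and 0.17, Itgb4 -0.24, 1.05 and 0.31, and Col17a1 -0.65, 1.04 and 0.05. In the hair plucking pair, markers of other cells also differed between genotypes. The summed FPKM of the fibroblast markers was 0.363 times and that of 5 leukocyte markers 0.301 times the wild type value in JunB cKO, with 24.3 FPKM against 80.6 for the latter, and the 2 muscle markers summed to 37.9 and 4.58. In wounds these sums were 1.27, 1.21 and 1.35 times the wild type value. The sums of endothelium, adipocyte and melanocyte markers were 1.38, 1.76 and 0.506 times the wild type value in wounds. In plucked skin they were 0.727, 1.25 and 1.56 times that value. The part of cell composition in the ratios of the 10 genes was not tested.

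**Figure D5:**
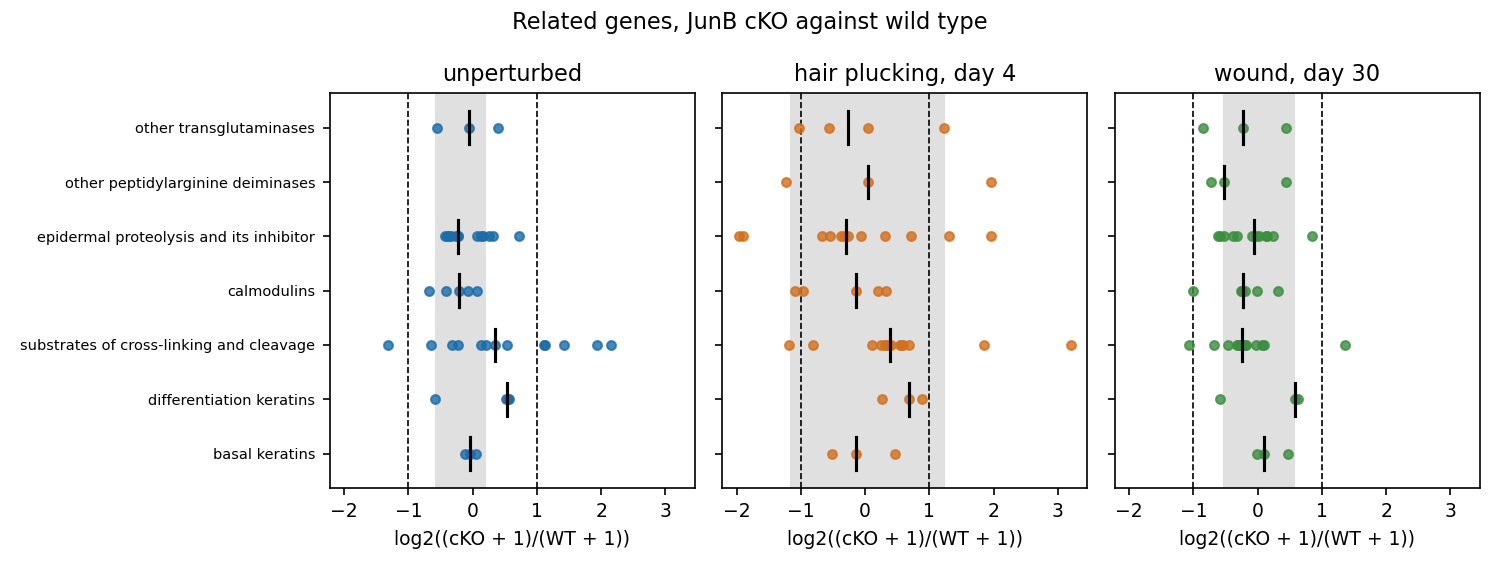
Log2 ratios of JunB cKO over wild type for genes related to the 10 members, with 1 point per gene with 1 FPKM or more, the list median (black bar), the 10th to 90th percentile of all genes with 10 FPKM or more (grey band) and dashed lines at 2-fold. The substrates reach furthest to the right in unperturbed keratinocytes and plucked skin, and in wounds most of them lie below 0.

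Over the 6 values, the 10 genes did not follow 1 pattern. The standardised log2 level of Krtdap had a Pearson r of 0.94 with the mean of the 10, Tgm1 0.88, Asprv1 0.83 and Dmkn 0.82, whereas Calml3 had 0.11, Padi1 -0.56 and Tgm3 -0.81. These are descriptions over 6 values, which include the members themselves and fall into 3 separately normalized tables. Among 8801 symbols with 10 FPKM or more in at least 1 column, those most like the mean of the members were 2310050C09Rik (r = 0.991), Snora41 (0.990), Ypel2 (0.984), Cdk6 (0.973) and Mbnl3 (0.967). The gene 2310050C09Rik was at 116 and 143 FPKM in unperturbed keratinocytes, 188 and 329 in plucked skin, and 58.4 and 37.7 in wounds, for wild type and JunB cKO, respectively.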

How the data were processed

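The authors pooled total RNA of 3 samples per library, depleted rRNA, prepared stranded libraries, trimmed and filtered the single-end reads, mapped these with TopHat or HISAT2 on GRCm38, assembled transcripts with Cufflinks and compared genotypes with Cuffdiff. The 3 deposited tables hold FPKM values as calculated by the authors, 1 per gene and genotype. They also hold the authors' log2 fold changes, p-values and q-values, which were not used. The genotype of a column came from its name in the table, and the condition of the plucked and wound tables from the names of the tables.

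The log2 ratio was log2((cKO + 1)/(WT + 1)), the limit 2-fold, and the minimum 1 FPKM in either genotype. Where a symbol had several loci, that with the largest summed FPKM was used. The members and lists were chosen with earlier results of these data known. Beside the members and Junb, genes of the related lists were named where they had 10 FPKM and passed 2-fold or were the highest or lowest of their list, and 1 gene that this rule names is not reported here. Krt1, Sprr3, Tchh, Krt28, Dsg1a, Dsc1, Itga6, Itgb4, Col17a1 and further values of genes named by this rule were chosen after their values were seen. Read steps were fitted to low FPKM values of single-transcript genes after subtracting 200 bases from the transcript length, and between 76.0% and 94.4% of these values were within 0.1 read of a whole number. The step gives the reads behind an FPKM value and not the number of sequenced reads. Coordinates are those of GENCODE release M21. Promoters came from RefSeq. The calculations were tested on simulated data. Analyses used Python 3.11.15, pandas 2.3.3, numpy 2.4.6, scipy 1.17.1 and matplotlib 3.10.9.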

Additional observations from a re-analysis of the deposited data

Results flagged for a closer look

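Padi1 had opposite directions in 2 tables, each by more than 1.5-fold, with log2 ratios of JunB cKO over wild type of 0.91 after hair plucking and -0.92 in wounds. With 1 value per genotype in each table, the difference between the tables was not tested.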

How the results depend on the processing

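The number of members past 2-fold after hair plucking was 2 in place of 1 with a pseudocount of 0.1 or 0.01 and with a limit of 1.5-fold, since Padi1 was added. In wounds it was 3 in place of 1 with a limit of 1.5-fold. The median log2 ratio of the members in unperturbed keratinocytes was 0.36 after centring on the median of all genes with 10 FPKM or more and -0.42 relative to Krt1 and Krt10. After hair plucking it was 0.42 relative to Krt5 and Krt14 and -0.67 relative to Krt1 and Krt10, and in wounds -0.51 and -0.81, respectively. Of 200 values of single members under the alternatives (both other pseudocounts, centring, summed loci, loci with status OK, and other minimum levels), 189 moved by less than 0.1 on the log2 scale, 11 moved by more, and the sign changed for 2, Tgm3 and Calml3 in unperturbed keratinocytes after centring (0.19 and 0.23). No paired analysis was possible because the wound table holds 1 value per genotype for its libraries. For the same reason neither limma, with or without a replicate block, nor fits leaving out a library were run. Depth limited Padi1 in unperturbed keratinocytes, with about 6 and 13 reads.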
